A study of Homo sapiens with 6 samples.

Results

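The MYC network transcription factors measured here were MYC, MYCN, MAX, MXI1, MXD1, MXD3, MXD4, MNT and MLX, taken as every array probe whose gene name equals one of these symbols, whatever its signal. They were 9 of the 36337 gene and transcript names on the array and were covered by 19 probes. The tumors were xenografts of BxPC-3, an established human pancreatic adenocarcinoma cell line, grown under the skin of female BALB/c (nu/nu) nude mice that were 8 to 10 weeks old at the start and have no mature T cells. Vehicle mice (3 tumors) received the vehicle alone, and DFX mice (3 tumors) received 200 mg/kg deferasirox, an oral iron chelator suspended in saline, in 3 doses a week for 21 days. All 6 tumors came from the same cell line, and 1 array with 1 dye was run for each tumor.

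MYC is a transcription factor of the basic helix-loop-helix leucine zipper family that binds the DNA element CACGTG, the E-box, only as a dimer with MAX, and drives genes of ribosome building, nucleotide synthesis and cell division. The MXD proteins, MXI1 and MNT also dimerize with MAX, bind the same element and recruit the SIN3 corepressor, so that they oppose MYC. MLX is the dimer partner of a parallel branch, in which MLXIP and MLXIPL sense sugar phosphates, and it also pairs with MXD1, MXD4 and MNT. MYC raises transferrin receptor transcription and lowers ferritin heavy chain transcription, and NDRG1 is a gene that MYC represses and that iron chelators raise in many cultured cells.

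No member probe differed between the DFX and vehicle tumors by limma, a moderated linear model fitted across all probes. Of the 19 member probes, 17 had a detection p under 0.05 on all 6 arrays and were tested, and 0 of the 17 had an unadjusted p under 0.05, against 8.41% of all 31807 tested probes (2675 probes). The adjusted p-values of the 17 ran from 0.653 to 0.985. The Kruskal-Wallis test called 0, but with 3 tumors a group it calls a probe only where the groups do not overlap. The log2 fold changes, DFX minus vehicle, ran from -0.35 for MYC to 0.32 for a probe of MXI1, with 8 probes higher, 9 lower and a median of -0.02, and the median of all tested probes was also -0.02. The 3 DFX tumors overlapped the 3 vehicle tumors for all 17 probes, whereas 15.5% of all tested probes had no overlap. All 17 tested probes were well above background on all 6 arrays. With 3 tumors a group, these p-values set the difference against a spread that mixes tumor, labelling and array. A whole-tumor array cannot tell fewer cells of a type from less RNA per cell.

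**Figure D1:**
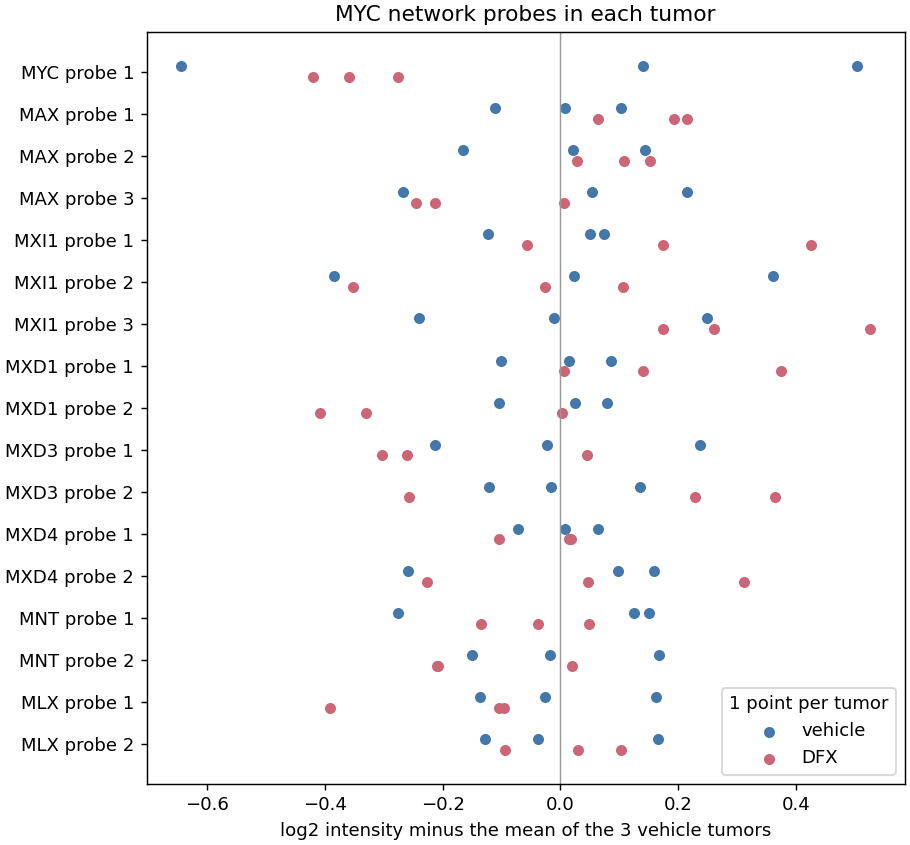
Normalized log2 intensity of the 17 tested MYC network probes in each tumor, minus the mean of the 3 vehicle tumors (1 point per tumor, vehicle blue, DFX red). The DFX tumors overlap the vehicle tumors in every row, and the vehicle tumors spread most for MYC.

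The array probes are 60 bases long, and those that lie in coding sequence show which part of each factor was read. Of the probes below, the capitals in MAX mark the codons of the basic region that contacts the E-box, and the capitals in MXI1 mark the codons of the helix that binds SIN3, in a probe designed on 1 of the MXI1 transcript forms. The MXD1 and MLX probes are shown because each spans an intron, covering 777 and 435 bases of the genome, so that they match spliced RNA and not the genomic DNA. The positions are those of the array annotation (hg19), namely chr14:65560459-65560518 on the minus strand for MAX, chr10:111985981-111986040 on the plus strand for MXI1, chr2:70142526-70143302 on the plus strand for MXD1 and chr17:40721610-40722044 on the plus strand for MLX.
MAX probe 1 (A_23_P151662): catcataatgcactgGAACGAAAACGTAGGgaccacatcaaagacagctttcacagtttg
MXI1 probe 2 (A_33_P3263902): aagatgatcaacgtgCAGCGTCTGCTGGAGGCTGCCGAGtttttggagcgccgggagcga
MXD1 probe 1 (A_23_P408094): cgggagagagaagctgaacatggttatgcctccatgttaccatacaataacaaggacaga
MLX probe 1 (A_19_P00810045): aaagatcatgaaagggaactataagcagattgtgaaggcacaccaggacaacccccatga

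The E-box was counted in promoter windows of RefSeq (GRCh38.p14, from 250 bases before to 50 after each start, both strands, since CACGTG reads the same on each). Of 27305 genes with a window 8.77% held at least 1, and 31 of 58 MYC-induced targets (53.4%), 0 of 7 MYC-repressed targets and 2 of 4 MLX branch targets did. MYC has no window in the table used here. Of the 8 members with a window, MLX, MNT and MXD4 held 1 each. Below are 30 bases around an E-box, in capitals, of these members and of ODC1, GNL3 and DUSP2, on the strand of the gene. Of the other target genes described further on, TFRC, PTMA, IREB2 and TXNIP held no E-box in any window. FTH1 and NDRG1 had no window here. ARRDC4 held 1, which is not printed, and so did the cofactor WDR5, at -136 in 1 of its windows. The E-boxes are matches of letters in a window and no measurement of binding.
MLX (chr17:42567050-42567055, plus strand, first base at -50 from the start): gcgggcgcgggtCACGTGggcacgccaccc
MNT (chr17:2401248-2401253, minus strand, at -193): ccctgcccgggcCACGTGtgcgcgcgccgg
MXD4 (chr4:2262342-2262347, minus strand, at -238): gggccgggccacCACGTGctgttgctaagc
ODC1 (chr2:10448036-10448041, minus strand, at -29): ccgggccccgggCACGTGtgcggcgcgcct
GNL3 (chr3:52686038-52686043, plus strand, at 6): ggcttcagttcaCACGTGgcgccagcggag
DUSP2 (chr2:96145548-96145553, minus strand, at -113): cagactgcgcccCACGTGaggggcgggggc

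MYC itself, the activating member, was read by probe 1 (A_23_P215956), which is printed on 10 spots of each array. Its normalized log2 intensity was 11.76, 12.55 and 12.91 in the vehicle tumors and 12.13, 11.99 and 12.05 in the DFX tumors. The DFX tumors lay close together and inside the vehicle range, with vehicle tumor 1 below them and vehicle tumors 2 and 3 above them. The mean was 12.41 ± 0.587 (SD, n = 3) with vehicle and 12.05 ± 0.0721 (SD, n = 3) with DFX, a log2 fold change of -0.35 (SE 0.292, 95% interval -1.07 to 0.36), or a change of -21.6% on the linear scale. limma gave an unadjusted p of 0.274 and an adjusted p of 0.752. The interval runs from 0.478 to 1.29 times the vehicle level, so that neither a halving nor a small rise lay outside what these tumors allow.

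The vehicle tumors spread widely for MYC. On each array the SD of the 10 spots of MYC probe 1 was between 0.0383 and 0.0649 on the log2 scale, and none of its spot values was marked as an outlier. With 1 array for each tumor, differences between tumors and between labelling reactions or arrays cannot be told apart. The SD of the vehicle tumors was larger than that of 98.5% of the 1564 tested probes within 0.5 of its mean level, whose median was 0.133. Among the DFX tumors the SD was larger than that of 36.2% of the same probes. No other member had a vehicle SD above 84.2% of probes of its level. Without vehicle tumor 1 the MYC log2 fold change was -0.67 with an unadjusted p of 0.00776 and an adjusted p of 0.571 (limma), and without vehicle tumor 3 it was -0.10 with an unadjusted p of 0.709 and an adjusted p of 0.938. Without each of the other tumors it ran from -0.39 to -0.28. Between tumors in the same column of the slide, DFX 2 was 0.22 above vehicle 1 and DFX 3 was 0.86 below vehicle 3 (differences in log2 intensity, DFX minus vehicle, 0.22 and -0.86). The slide rows coincided with the groups, with vehicle in row 1 and DFX in row 2, so that row and treatment cannot be told apart.

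**Figure D2:**
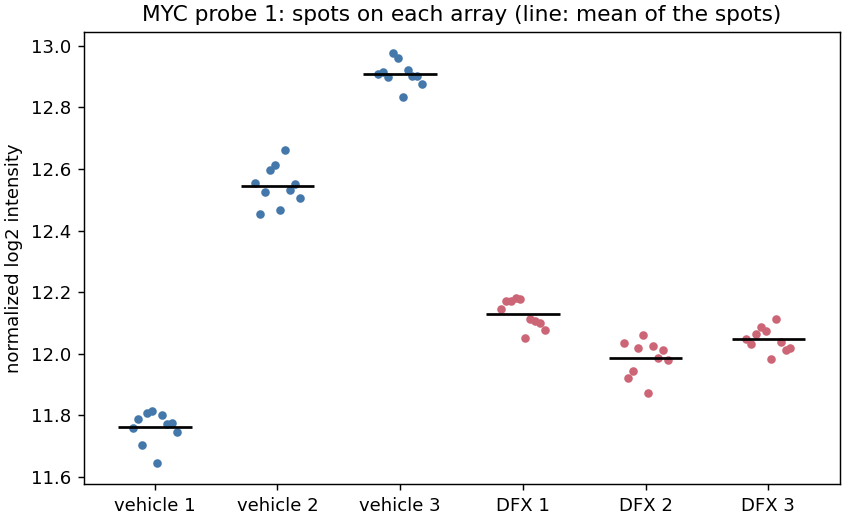
Normalized log2 intensity of each of the 10 spots of MYC probe 1 on each array (vehicle blue, DFX red, line at the mean of the spots). The spots of 1 array differ by far less than the vehicle arrays differ from each other, whose means are 11.76, 12.55 and 12.91.

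A second MYC probe (A_33_P3245163), which lies 5132 bases upstream of probe 1, was not well above background on any of the 6 arrays, with log2 values from 1.96 to 2.03. It was designed on another sequence record than probe 1, and whether both read the same RNA was not looked up. MYCN, the neuronal paralog, was not well above background on any array either. Its log2 values were 1.96, 1.98 and 3.17 with vehicle and 2.499, 4.31 and 2.78 with DFX. The detection p of MYCN was under 0.05 on every array except that of vehicle tumor 1 (0.0929), so that it was not tested.

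MAX, the shared partner, had 3 probes that all overlapped between groups. Probe 1 over the basic region read 8.96, 8.87 and 8.75 with vehicle and 9.05, 8.92 and 9.07 with DFX, a log2 fold change of 0.16 (SE 0.111, adjusted p 0.721 by limma). Only vehicle tumor 1 reached into the DFX values. Probe 2 (A_23_P205549, chr14:65542003-65542062) was 12.42 ± 0.156 with vehicle and 12.52 ± 0.0628 with DFX (SD, n = 3). Probe 3 (A_23_P436138, chr14:65550834-65550893), which was designed on another transcript form, was 6.795 ± 0.246 with vehicle and 6.64 ± 0.137 with DFX. The log2 fold change was 0.10 for probe 2 (95% interval -0.20 to 0.39) and -0.15 for probe 3 (95% interval -0.54 to 0.24).

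Of the antagonists, MXI1 held the lowest unadjusted p of all members. Probe 3 (A_33_P3383029, chr10:112044747-112044806) read 10.57, 10.83 and 10.34 with vehicle and 10.76, 10.84 and 11.11 with DFX. The DFX tumors were at the upper end, and vehicle tumor 2 lay among them. The log2 fold change was 0.32 (SE 0.17, 95% interval -0.09 to 0.74), with an unadjusted p of 0.108 and an adjusted p of 0.653 (limma). Without vehicle tumor 2 the log2 fold change was 0.45 with an unadjusted p of 0.0459 and an adjusted p of 0.687 (limma). Leaving out that tumor removes the overlap, so that this p-value only describes the remaining tumors. It was the only 1 of 18 alternative settings with an unadjusted p under 0.05 for this probe. Probe 1 (A_23_P161399, chr10:112045945-112046001), near the same end of the gene, gave 11.22 ± 0.108 with vehicle and 11.40 ± 0.242 with DFX (SD, n = 3), a log2 fold change of 0.18. Probe 2, on the SIN3-binding helix printed above, gave 6.995 ± 0.373 with vehicle and 6.90 ± 0.236 with DFX, a log2 fold change of -0.09.

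MXD1, which rises as cells leave division and mature, was read at both ends of its RNA with values that pointed opposite ways. The spliced probe 1 read 10.12, 10.19 and 10.004 with vehicle and 10.24, 10.11 and 10.48 with DFX, a log2 fold change of 0.17 (SE 0.134, adjusted p 0.738 by limma). Probe 2 (A_24_P379750, chr2:70169884-70169943) read 12.19, 12.01 and 12.14 with vehicle and 11.78, 11.71 and 12.12 with DFX, a log2 fold change of -0.24 (SE 0.144, adjusted p 0.674 by limma). DFX tumor 3 alone lay within the vehicle values of probe 2. Without DFX tumor 3 the log2 fold change was -0.37 (unadjusted p 0.028, adjusted p 0.566 by limma). Leaving it out removes the overlap, so that this p-value only describes the remaining tumors. No other of the 18 alternative settings gave this probe an unadjusted p under 0.05.

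The remaining antagonists differed by less than the spread between tumors. MXD3, which is expressed in dividing cells, gave log2 fold changes of -0.17 for probe 1 (A_24_P417706, chr5:176732666-176732725) and 0.11 for probe 2 (A_33_P3297255, chr5:176734216-176734275). MXD3 probe 2 read 11.51 and 11.65 in DFX tumors 1 and 2 and 11.02 in DFX tumor 3, an SD of 0.327 that was larger than that of 94.9% of probes of its level. MXD4, found in quiescent and differentiated cells, gave -0.02 for probe 1 (A_23_P423695, chr4:2251280-2251339) and 0.04 for probe 2 (A_24_P234732, chr4:2249759-2249818). MXD4 probe 1 had the narrowest 95% interval of all members, -0.27 to 0.22, which corresponds to 0.828 to 1.17 times the vehicle level. MNT, the widely expressed antagonist of MYC, gave -0.04 for probe 1 (A_23_P341443, chr17:2287576-2287635) and -0.13 for probe 2 (A_33_P3246733, chr17:2289632-2289691). The brighter MNT probe 1 was 12.81 ± 0.239 with vehicle and 12.77 ± 0.0912 with DFX (SD, n = 3).

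MLX, the partner in the parallel branch, gave a log2 fold change of -0.20 (SE 0.14, adjusted p 0.722 by limma) for the spliced probe 1 and 0.01 (SE 0.124) for probe 2 (A_23_P164148, chr17:40724283-40724342). MLX probe 1 read 7.94, 8.05 and 8.23 with vehicle and 7.98, 7.97 and 7.68 with DFX.

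**Figure D3:**
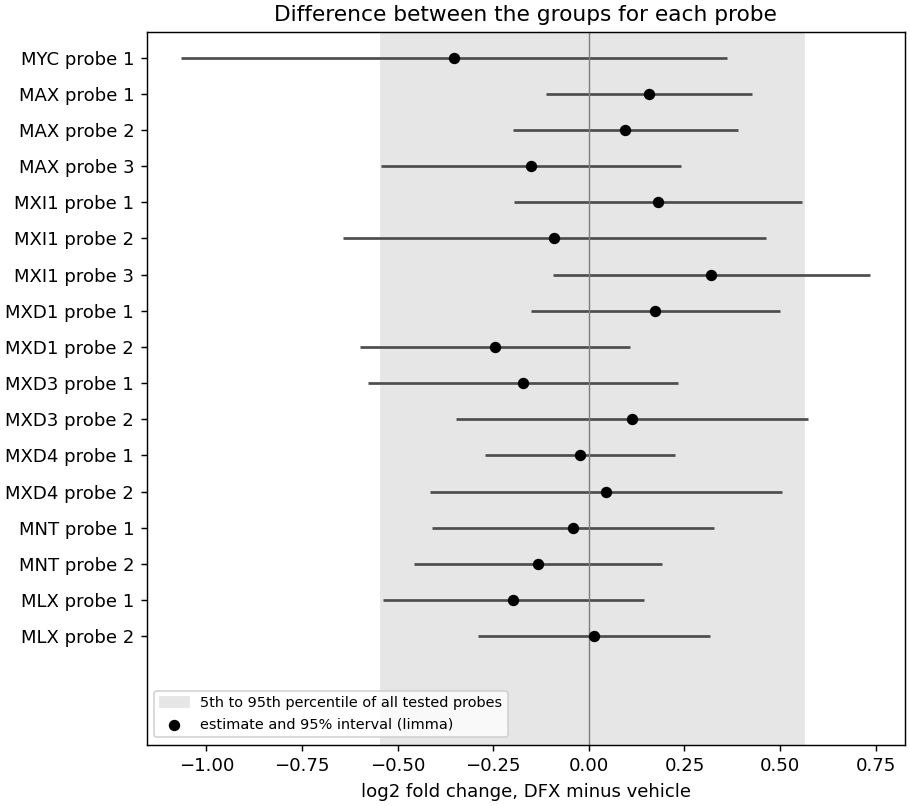
Log2 fold change (DFX minus vehicle) of each tested MYC network probe, with the 95% interval from limma, over the 5th to 95th percentile of all tested probes (grey). Every interval covers 0 and every estimate lies within the grey band, which runs from -0.54 to 0.56.

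The precision of the members was like that of the array as a whole. The median standard error was 0.151 over the 17 member probes and 0.17 over all tested probes, and the median size of the log2 fold change was 0.15 against 0.159. The half-width of the 95% interval ran from 0.25 for MXD4 probe 1 to 0.71 for MYC probe 1. These intervals leave differences of up to 1.67 times the vehicle level possible for MXI1 probe 3.

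Of the 7 members with several tested probes, 6 had probes of opposite sign. Within each array the difference between 2 probes of 1 gene does not depend on a constant scaling of that array, and it was compared between groups for all 11 such pairs by a two-sided exact permutation test over the 6 tumors. There was no overlap between groups for 3 of the 11, against 17.1% of the 12260 pairs of all genes, and each of the 3 had p = 0.1, the smallest this exact test can give with 3 against 3, and an adjusted p of 0.367 over the 11. For MXD1, probe 2 minus probe 1 was 2.07, 1.82 and 2.14 with vehicle and 1.54, 1.59 and 1.64 with DFX on the log2 scale. For MLX, probe 2 minus probe 1 was 2.39, 2.37 and 2.38 with vehicle and 2.51, 2.59 and 2.68 with DFX. For MXI1, probe 3 minus probe 2 was 3.56, 3.48 and 3.73 with vehicle and 4.11, 3.88 and 4.01 with DFX. In the MLX pair and this MXI1 pair the probe nearer the gene end was higher relative to the other probe in the DFX tumors. In MXD1 it was lower. MXI1 probe 1 lies nearer the end than probe 3. Probe 2 minus probe 1 had means of -4.22 with vehicle and -4.49 with DFX, and the groups overlapped (p = 0.2, exact permutation test). MXI1 probe 2 was listed for 1 transcript form and probes 1 and 3 for 3 each, so that position and transcript form cannot be told apart.

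The other factors of the network and the proteins that act with or on MYC gave 1 call in 40 genes, each read by its brightest tested probe, against 7.98% of all 22718 genes. Among MYCL, MGA, MLXIP and MLXIPL 0 of 4 were called. MYCL, a MYC paralog, read 9.88, 9.74 and 9.48 with vehicle and 9.91, 9.96 and 9.89 with DFX, a log2 fold change of 0.22 (SE 0.133, adjusted p 0.685 by limma) with no overlap between the groups. MGA, a MAX-binding repressor, gave 0.11. The MLX partners MLXIP and MLXIPL gave -0.06 and 0.10.

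Of 18 cofactors of MYC and of its antagonists 1 was called, against 7.98% of all genes. WDR5, a chromatin scaffold that helps MYC onto its target genes, rose from 12.43, 12.61 and 12.21 with vehicle to 12.75, 12.76 and 12.74 with DFX, a log2 fold change of 0.33 (SE 0.13, unadjusted p 0.0421, adjusted p 0.581 by limma). All 3 DFX tumors were above all vehicle tumors. The unadjusted p of WDR5 was above the threshold without any 1 of the tumors other than vehicle 2, between 0.0814 and 0.0973. Of 18 genes that set the transcription, translation, stability or degradation of MYC, 0 were called. Their log2 fold changes ran from -0.30 to 0.28 with a median of -0.03, and 16 of them were well above background on all arrays.

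The genes that MYC induces were called at a share near that of all genes. Of the 70 listed, 69 were tested and CCND2 was not. Of these, 29 were higher and 40 lower with DFX, and 4 were called (5.80%, against 7.98% of all genes), 2 higher and 2 lower. The median log2 fold change of the 69 was -0.02 and that of all genes -0.01. Of the 4 called genes, those higher were GNL3 and PTMA and those lower were TFRC and DUSP2, all with adjusted p-values between 0.513 and 0.58.

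GNL3, a GTPase of the nucleolus, rose from 11.32, 11.48 and 11.37 with vehicle to 11.81, 11.74 and 11.79 with DFX, a log2 fold change of 0.39 (SE 0.101, unadjusted p 0.00823 by limma). The groups did not overlap, and the call held without each tumor in turn. The call ended with median scaling (0.27, unadjusted p 0.0908) and with the slide column as a block (0.42, unadjusted p 0.139). PTMA, a chromatin protein with many processed copies in the genome that this probe may also read, rose by 0.29 (SE 0.111, unadjusted p 0.0384 by limma). PTMA kept an unadjusted p under 0.05 when DFX tumor 2 was left out and lost it without each of the other tumors, with values between 0.0679 and 0.136. TFRC, the transferrin receptor that brings iron into cells, read 11.94, 12.06 and 12.29 with vehicle and fell to 11.59, 11.70 and 11.78 with DFX, a log2 fold change of -0.41 (SE 0.133, unadjusted p 0.0223 by limma). Without vehicle tumor 3, DFX tumor 1 or DFX tumor 2 its unadjusted p was 0.0506, 0.0783 and 0.053. DUSP2, a phosphatase of MAP kinases, read 5.31, 5.82 and 5.26 with vehicle and fell to 4.37, 4.66 and 4.44 with DFX, a log2 fold change of -0.98 (SE 0.185, unadjusted p 0.00182 by limma). DUSP2 was dim, and 2 of 3 DFX arrays had it well above background. Its log2 fold change was -0.35 with normexp background correction and -0.30 on the raw mean signal, with unadjusted p-values of 0.00491 and 0.00643 (limma).

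ODC1, the first enzyme of polyamine synthesis and a direct MYC target with 2 E-boxes in its window, read 11.08, 11.13 and 11.88 with vehicle and 11.38, 11.26 and 11.05 with DFX. Its vehicle tumor 3 was the highest value and the groups overlapped, with a log2 fold change of -0.14 (SE 0.242, adjusted p 0.889 by limma). IREB2, which encodes an iron-responsive RNA-binding protein, was 11.70 ± 0.0191 with vehicle and 11.76 ± 0.0418 with DFX (SD, n = 3).

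Of the genes that MYC represses 0 of the 10 tested were called, against 7.98% of all genes, with log2 fold changes from -0.19 to 0.14. FTH1, the ferritin heavy chain that stores iron, gave 0.07 (SE 0.12, 95% interval -0.22 to 0.36). NDRG1 was 16.53 ± 0.204 with vehicle and 16.67 ± 0.329 with DFX (SD, n = 3), a log2 fold change of 0.14 (95% interval -0.36 to 0.64). The targets of the MLX branch were TXNIP, ARRDC4, PKLR, FASN and ACACA, genes of sugar uptake control, sugar breakdown and fat synthesis. Of these, 0 of 5 were called, all 5 were higher by 0.16 to 0.29, and their median was 0.22. Of all 22718 genes 10836 were higher and 7.98% were called, so that 0 calls in lists of 10 and 5 genes says little. PKLR was well above background on 1 vehicle and 2 DFX arrays. TXNIP, the classical target of that branch, read 16.18, 15.36 and 15.14 with vehicle and 15.63, 15.56 and 15.97 with DFX, so that vehicle tumor 1 was above every DFX tumor, and its log2 fold change ran from -0.05 to 0.47 when 1 tumor was left out.

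**Figure D4:**
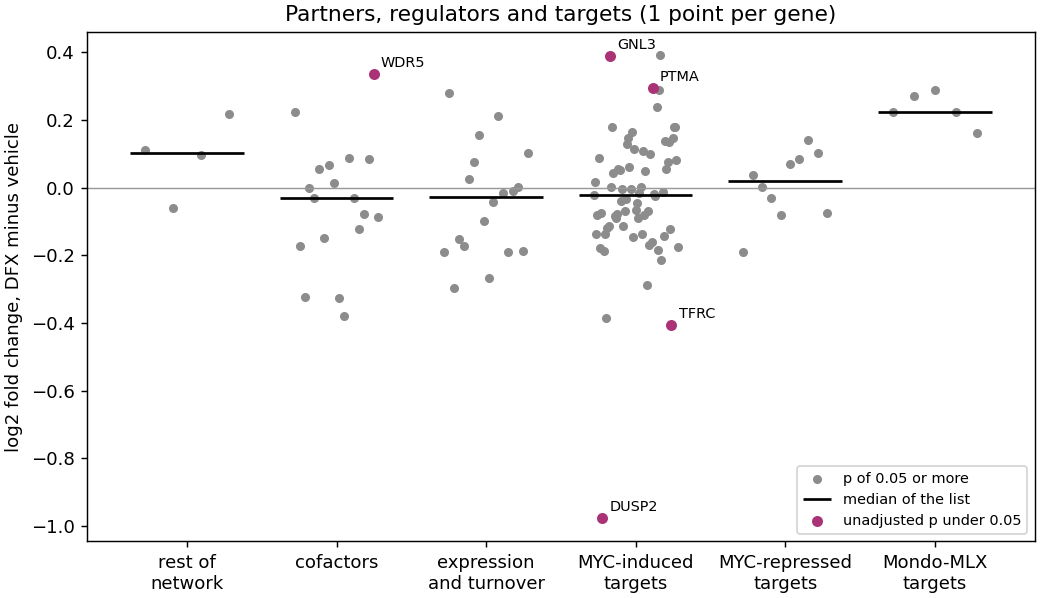
Log2 fold change (DFX minus vehicle) of each tested gene in the lists of MYC partners, regulators and targets, by brightest probe, with the median of each list as a line. The 5 genes with an unadjusted p under 0.05 are named, and the medians lie between -0.03 and 0.22.

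The tumors differed among themselves in MYC and its targets. Relative to the mean of all 6 tumors, MYC probe 1 stood at -0.47, 0.32 and 0.68 in vehicle tumors 1, 2 and 3 and at -0.10, -0.24 and -0.18 in the DFX tumors. The median of the 69 MYC-induced targets on the same scale was -0.17, -0.01 and 0.19 in the vehicle tumors and 0.04, 0.03 and -0.08 in the DFX tumors. Vehicle tumor 3, highest for MYC, had 58 of the 69 targets above their own mean (84.1%). Vehicle tumor 1, lowest for MYC, had 9 of 69 (13.0%). The other tumors did not follow the order of MYC. Vehicle tumor 2, next highest for MYC, had 31 of 69 (44.9%), fewer than DFX tumors 1 and 2 with 42 (60.9%) and 45 (65.2%). DFX tumor 3 had 20 of 69 (29.0%). The median of all tested genes ran from -0.00904 to 0.0203 over the tumors. The 8 markers of cycling cells had the same order among the vehicle tumors, with medians of -0.28, -0.03 and 0.48 in the vehicle tumors and 0.11, 0.08 and -0.30 in the DFX tumors. Several of the targets serve DNA replication and mitosis, and the part of cell division in the target values was not tested. Vehicle tumor 3 also stood apart in other markers, with medians of -0.28 for BxPC-3 epithelium (1 of 10 above their own mean), -2.59 for intestinal epithelium (0 of 7) and -0.47 for fibroblasts (2 of 8), and the part of these was not tested. No test was made here, since the tumors were compared after their MYC values were known.

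**Figure D5:**
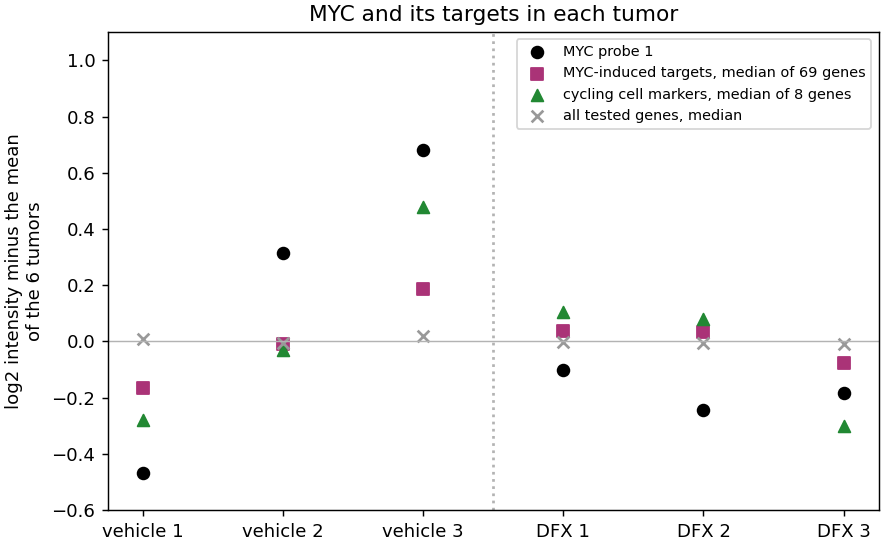
Log2 intensity in each tumor minus the mean of the 6 tumors, for MYC probe 1 and as the median over the MYC-induced targets, the cycling cell markers and all tested genes. Vehicle tumor 1 is lowest and vehicle tumor 3 highest for MYC and for its targets, and the DFX tumors lie between them.

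The genes whose profile over the 6 arrays was closest to that of MYC were LRRC8C, POLR3G and C14orf33, with root mean square differences of 0.0742, 0.0957 and 0.0994 on the log2 scale after each profile was centred, where MYC itself varied by 0.384 around its mean. They were taken from 19448 probes, and POLR3G encodes a subunit of RNA polymerase III. LRRC8C read 8.43, 9.05 and 9.43 with vehicle and 8.70, 8.69 and 8.69 with DFX. Closest to MXI1 probe 3 were ZNF2, CRYBG3 and MCTP1, at 0.0373, 0.0549 and 0.0614, where MXI1 varied by 0.238. Likeness over 6 arrays is a description.

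The arrays correlated at 0.98 or more with one another, and between 50.3% and 56.5% of probes were well above background on each. All 10 epithelial markers of BxPC-3 were well above background in all tumors. With DFX 8 of them were higher, and 4 (KRT8, KRT18, EPCAM and S100P) were called higher. The 7 tested markers of intestinal epithelium were all called higher with DFX. Summed over the 8 on the array, the linear intensity was 369 to 1850 with vehicle and 2913 to 4921 with DFX. Of these 8 markers 4 were well above background on all arrays. Among the cycling cell markers 0 of 8 were called. Of the 8 fibroblast markers tested, DCN was called lower and LUM called higher. Of the 4 for endothelium, PECAM1 was called higher. Of the 4 for red blood cells, HBA2 and HBD were called lower, and 0 of 5 leukocyte markers were called. The share called was 7.98% over all genes. The host cells are mouse, whereas the array probes were designed on human sequence. The part of these markers in the member values was not tested.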

How the data were processed

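RNA from 6 tumors was hybridized by the authors to 1-colour Agilent arrays of 60-base probes, scanned and read with Feature Extraction (version 9.5.1.1 per the labels, 10.7.1.1 per the file headers). The deposited intensity is the processed signal of each spot, background-subtracted by that software and not normalized between arrays, with a p-value per spot for detection, also deposited. The authors' own table of quantile-normalized intensities, log2-transformed here, was used as an alternative. Here log2 intensities of 58717 non-control spots were quantile-normalized, 1398 outlier-flagged values were left out, spots were averaged per probe, and the 31807 of 50599 probes with a median detection p under 0.05 on all 6 arrays were tested with limma 3.58.1 in R 4.3.3 (Benjamini-Hochberg over all tested probes). Calls use an unadjusted p under 0.05. The study's methods name a threshold of 0.05 without stating an adjustment. Well above background is the scanner software's flag on at least 1 of every 2 spots of a probe. No spot was saturated. Genes other than the members are read by their brightest tested probe. Named are all members, the 4 other network factors, genes called within each list, TFRC, IREB2, FTH1, NDRG1, ODC1 and TXNIP, and the 3 genes most like MYC and the member probe of lowest p. The members and lists were chosen with earlier results of these data known. Replicate numbers did not pair the tumors. Alternatives were scaling, background correction, filters, weights, tests, blocks and leaving out each tumor. Promoters were matched by gene symbol to a table of RefSeq windows, in which 8 of the 9 members were found and MYC was not. Exon and UTR positions of the probes were not looked up, since no annotation of hg19 was used here.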

Additional observations from a re-analysis of the deposited data

How the results depend on the processing

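The count of 0 called member probes held under all 12 settings that kept all tumors, and leaving out 1 tumor gave 0 to 1. Of the other counts, the 1 of 40 network partners and regulators became 0 with median scaling, the replicate block and the slide column block, 2 with normexp, the raw mean signal, no filter or any probe of a gene, 9 by the Kruskal-Wallis test and 0 to 2 without 1 tumor. The 4 MYC-induced targets became 2 with median scaling, 1 with the slide column block, 9 by Kruskal-Wallis and 2 to 5 without 1 tumor. The 0 repressed and MLX branch targets became 1 by Kruskal-Wallis and 0 to 3 without 1 tumor. Each Kruskal-Wallis count equals the number of genes whose groups did not overlap. The causes of the changes in count were not tested. Median scaling moved the median of all probes to -0.103 and turned the sign of MAX probe 2 (-0.0163), MXD3 probe 2 (-0.00214), MXD4 probe 2 (-0.0601), MLX probe 2 (-0.0965), MGA (-0.0103), IREB2 (-0.0551) and FTH1 (-0.0279). Array quality weights turned NDRG1 (-0.0659) and ODC1 (0.0694). The slide column block turned MXI1 probe 2 (0.221), MXD4 probe 1 (0.0208), MNT probe 1 (0.0677) and MLX probe 2 (-0.0138). Leaving out 1 tumor at a time gave log2 fold changes that crossed 0 for MXI1 probe 2 (-0.283 to 0.0903), MXD3 probe 2 (-0.0141 to 0.297), MXD4 probe 1 (-0.0591 to 0.0169), MXD4 probe 2 (-0.0897 to 0.179), MNT probe 1 (-0.179 to 0.0341), MLX probe 2 (-0.0513 to 0.0963), MLXIPL (-0.209 to 0.327), FTH1 (-0.0123 to 0.149), NDRG1 (-0.0415 to 0.28), ODC1 (-0.278 to 0.121) and TXNIP (-0.0486 to 0.47). None of these values had an unadjusted p under 0.05 except that of TXNIP without vehicle tumor 1 (0.0464). Of the 5 other genes called, DUSP2 kept its call in every alternative that tested it, at log2 fold changes from -1.145 to -0.302, whereas GNL3 lost it with median scaling (0.271) and the slide column block (0.421), TFRC with the slide column block, PTMA with median scaling and both blocks, and WDR5 with these and the array weights.

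The replicate block called 0 member probes and 2419 probes in all, against 2675 without it. Tumors of the same number correlated at 0.0274, 0.0267 and 0.0158 in their deviations from the group means, so the numbers were not taken as pairs. Counts over all probes were 1418 with the slide column block, 4213 with array weights and 4927 by Kruskal-Wallis. The probes without overlap between groups also numbered 4927, and such a separation has p = 0.1 by an exact permutation test. With 3 tumors a group, the number of arrays limits the precision, and for MYC so does the spread of the vehicle tumors.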
